A study of Mus musculus with 5 samples.

Results

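The 10 genes described here are Tie1, Tek, Eng, Pecam1, Vwf, Plvap, Angpt2, Kdr, Cdh5 and Btnl9, a set of genes of vascular endothelium taken as listed, out of 21883 protein coding genes on the autosomes, X and Y. They were selected on measured methylation differences of these same libraries, seen in an earlier reading of the gene end and gene body levels, so all values below are descriptions of the libraries and none is a test. Reduced representation bisulfite sequencing, which samples CpG-rich fragments, gave the methylation level of single CpG cytosines. The mice were of the C57BL/6x129S6 strain background. The 5 libraries are 1 of muscle, labelled as the control, and 4 of teratomas, tumours of mixed differentiated tissue that pluripotent cells form. The teratomas followed the injection of embryonic stem cells into tetraploid embryos. The cells had been cultured in conditions named P5_2iL, P5_2iL_F, P5_a2iL_1 and P5_LCDM_1, with no further description in the labels. The series title speaks of adult mice, and the labels used here give no age, sex, number of animals or site of the tumours. With 1 library per group there is no replicate error, and each difference compares 2 libraries and not 2 conditions.

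Endothelial cells line blood vessels and are held together by adherens junctions. Growth of vessels is driven by VEGF acting on receptors such as Kdr, while angiopoietins acting on Tek and its partner Tie1 set how stable a vessel is. Methylation of a gene start usually goes with low transcription and methylation inside a gene does not, so the ends and the inside of each gene were kept apart here. Both teratomas and muscle contain vessels among many other cells, and a level in bulk tissue averages over all of them, so a different share of endothelial cells and a different level per cell cannot be told apart.

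The deposited files give a methylation level in percent per cytosine and no read counts, so depth per value is unknown and no interval can be given. They list from 4013916 cytosines on these chromosomes in muscle to 5318676 in P5_2iL_F, of which 3162868 are in all 5 libraries. For each gene 3 windows were used, each with the cytosines that all 5 libraries share. Each of the 2 end windows covers 1000 bp beyond the gene and its first or last 500 bp, and the inner window holds the rest. A window was counted as measured with 3 or more cytosines, and called higher or lower when its mean level differed by 25 percentage points or more. The 10 genes hold 1145 shared cytosines. All 10 had a measured inner window, but only 10 of the 20 end windows were measured, and Vwf and Cdh5 had none. The other unmeasured ends are the lower-coordinate ends of Pecam1, Angpt2, Kdr and Btnl9 and the higher-coordinate ends of Tek and Eng. Neighbouring cytosines often lie on the same reads and are not independent. The only measure of error is the difference between the strands of a CpG, which over 350 pairs in these genes gave a spread per cytosine of 12.9 points in P5_2iL to 18.4 points in muscle.

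A RefSeq promoter table of GRCm38.p6, the build also known as mm10, holds 5 of the 10 genes (Tie1, Tek, Eng, Kdr and Btnl9) with their strand. For these the end at which transcription starts can be named. For the others the ends are given as the lower- and the higher-coordinate end. The 250 bases upstream of the RefSeq start of 4 genes are shown 5′ to 3′ because the start windows of 3 of them (Tie1, Eng and Btnl9) carry the largest contrasts and that of Kdr the smallest. Capitals mark CpGs.
Tie1 (chr4:118489850-118490099, minus strand): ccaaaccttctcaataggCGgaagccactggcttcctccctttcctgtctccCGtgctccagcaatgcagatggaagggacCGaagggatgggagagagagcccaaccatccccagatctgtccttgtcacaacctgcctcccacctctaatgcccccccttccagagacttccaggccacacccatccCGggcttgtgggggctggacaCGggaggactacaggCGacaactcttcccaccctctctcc
Eng (chr2:32646345-32646594, plus strand): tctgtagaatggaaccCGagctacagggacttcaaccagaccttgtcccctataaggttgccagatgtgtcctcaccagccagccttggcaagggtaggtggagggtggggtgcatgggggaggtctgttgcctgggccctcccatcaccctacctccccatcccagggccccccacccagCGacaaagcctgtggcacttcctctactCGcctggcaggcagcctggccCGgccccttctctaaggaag
Kdr (chr5:75978456-75978705, minus strand): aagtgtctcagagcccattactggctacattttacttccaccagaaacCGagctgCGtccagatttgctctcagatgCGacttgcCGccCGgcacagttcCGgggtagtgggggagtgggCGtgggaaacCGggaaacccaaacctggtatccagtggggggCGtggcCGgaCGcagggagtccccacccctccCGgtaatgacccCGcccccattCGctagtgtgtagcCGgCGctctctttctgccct
Btnl9 (chr11:49187090-49187339, minus strand): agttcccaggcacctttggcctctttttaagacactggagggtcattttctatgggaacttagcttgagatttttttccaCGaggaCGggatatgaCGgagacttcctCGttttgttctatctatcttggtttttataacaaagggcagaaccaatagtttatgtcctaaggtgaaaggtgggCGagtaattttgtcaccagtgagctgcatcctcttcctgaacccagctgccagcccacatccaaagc
Kdr has 16 CpGs in this stretch, against 6 in Tie1, 5 in Btnl9 and 4 in Eng. Over the full 300 bases of the table, which add the first 50 transcribed bases, Kdr has 19 CpGs, more than 71.9% of the 32851 promoters listed, while Tie1 (7), Eng (6), Btnl9 (5) and Tek (3) are at or below the median of 7. The letters CGGAA, an ETS factor core that contains a CpG, were searched on both strands over the 300 bases. They occur once in Tie1 and once in Kdr and in 29.9% of all promoters in the table. The RefSeq start of Kdr lies 617 bp inside the gene span and that of Tek 203 bp inside it, whereas the other 3 start at the span's end. The start window of Kdr therefore lies wholly upstream of its RefSeq start and does not contain it.

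The Tie1 and Tek receptors and their ligand Angpt2 came apart by window. Tie1 encodes an orphan receptor tyrosine kinase that modulates Tek. At its start (chr4:118489350-118490849) the mean level over 4 cytosines was 48.8% in muscle and 42.2% in P5_a2iL_1, but 0% in P5_2iL, 5.04% in P5_2iL_F and 11.2% in P5_LCDM_1. These 4 cytosines lie from 102 bp inside to 39 bp upstream of the start, and at each of them the 2 higher libraries were above the 3 lower ones. The cytosines at 24 and 39 bp upstream belong to the last 2 CpGs in capitals of the Tie1 sequence above. At the other end of Tie1, beyond its 3′ end (chr4:118470191-118471690), muscle and P5_2iL changed places. Muscle was lowest there with 22.9% over 6 cytosines, and P5_2iL_F (59.7%), P5_LCDM_1 (60.4%), P5_a2iL_1 (66.7%) and P5_2iL (95.6%) were above it. All 4 teratomas were called higher than muscle there. The strands were uneven over the 2 CpGs read on both. The differences from muscle were 56.25 and 6.25 points in P5_LCDM_1 and 50 and 16.25 in P5_a2iL_1. They were 37.5 and 15.3 in P5_2iL_F and 100 and 43.1 in P5_2iL. In P5_LCDM_1 only 3 of the 6 cytosines were higher than muscle by 25 points or more. Inside Tie1 the teratomas were above muscle (76.9%) by 7.22 points in P5_LCDM_1 to 16.7 points in P5_2iL, below the size called. A higher level of Tie1 in the teratomas is thus seen at its far end, whereas at its start all 4 were below muscle, 3 of them by the size called and P5_a2iL_1 by a difference of -6.62 points.

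Tek encodes the angiopoietin receptor Tie2. Its start (chr4:94738086-94739585, 7 cytosines) was at 15.9% in muscle, 17.9% in P5_2iL, 11.1% in P5_2iL_F, 31.9% in P5_a2iL_1 and 8.79% in P5_LCDM_1. No library pair that was compared differed there by the size called, and P5_LCDM_1 against P5_a2iL_1 came nearest with -23.2 points. The inside of Tek was heavily methylated in every library, from 78.9% in P5_LCDM_1 to 87.1% in P5_2iL, with muscle at 83.2%.

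Angpt2 encodes the ligand that acts on Tek as a context-dependent antagonist. At its higher-coordinate end (chr8:18741063-18742562, 8 cytosines) muscle was at 9.17%, P5_LCDM_1 at 52.3%, P5_2iL at 67.9%, P5_2iL_F at 68.1% and P5_a2iL_1 at 78.8%. All 8 cytosines were higher than muscle in each of the 4 teratomas. The inside of Angpt2 stayed between 48.3% and 57.2% over 90 cytosines. Angpt2 lies within the span of another gene, Mcph1, so these windows belong to both.

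**Figure D1:**
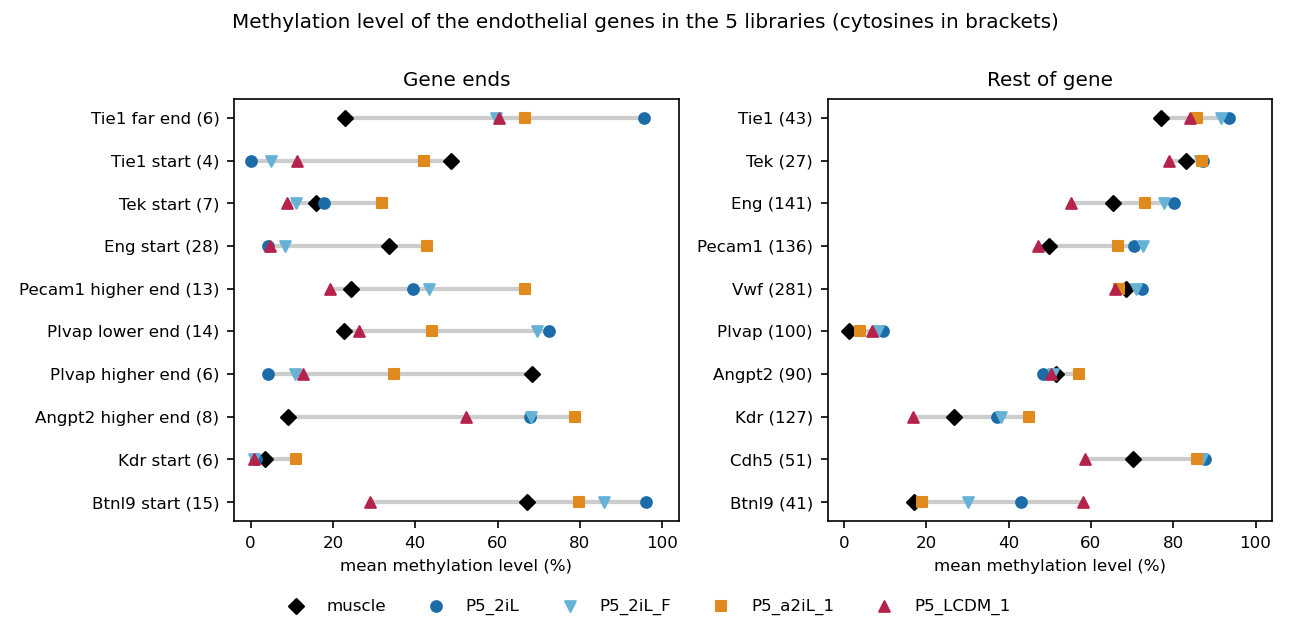
Mean methylation level (x axis, percent) of each measured window of the 10 endothelial genes, with gene ends on the left and the rest of the gene on the right. Each point is 1 library and the grey bar spans the 5 libraries, the number in brackets is the count of shared cytosines, and P5_LCDM_1 is the lowest teratoma in 6 of 10 end windows and 7 of 10 inner windows.

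Kdr and Eng are receptors of the VEGF and TGF-beta families. Kdr, the main VEGF receptor of endothelium, was almost free of methylation in its start window (chr5:75978573-75980072, 6 cytosines) in all libraries, from 0.759% in P5_LCDM_1 to 11.0% in P5_a2iL_1. All 6 lie in chr5:75978827-75979826, upstream of the 250 bases shown. The 9 shared cytosines in the 300 promoter bases of Kdr fall in the inner window. Inside Kdr (chr5:75933327-75978572, 127 cytosines) muscle had 26.6%, P5_2iL 37.2%, P5_2iL_F 38.0%, P5_a2iL_1 45.0% and P5_LCDM_1 16.7%. This window includes the RefSeq start of Kdr. In the 1 kb around that start (chr5:75977827-75978826) lie 56 of the 127 cytosines, at 0.635% to 2.68% in all libraries. They bring down the inner levels of Kdr and the differences between them. P5_LCDM_1 alone was below muscle, and the other teratomas were above it. Against P5_a2iL_1 the Kdr difference was -28.3 points. It fell short of the size called with cytosines shared by the pair alone (-24.0), with strands averaged (-23.6) and with the median over cytosines (-16.8). The contrast sat in parts of the gene. In 1 tile of 1 kb (chr5:75961827-75962826, 10 cytosines) P5_LCDM_1 was at 14.5%, with 86.7% in muscle and 67.0% to 94.2% in the other teratomas. A further tile of 3 cytosines (chr5:75970827-75971826) had 7.95% in P5_LCDM_1 and 88.1% in muscle. In another tile (chr5:75933827-75934826, 30 cytosines) P5_LCDM_1 (34.5%) was close to muscle (32.0%), and the others were at 65.9% to 87.3%.

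Eng encodes endoglin, a co-receptor for BMP9 and other TGF-beta family ligands. Its start window (chr2:32645595-32647094, 28 cytosines) was at 33.7% in muscle and 42.8% in P5_a2iL_1, and at 4.26% in P5_2iL, 8.28% in P5_2iL_F and 4.63% in P5_LCDM_1. The libraries thus fell into the same 2 sets as at the start of Tie1, with P5_a2iL_1 beside muscle. The difference of P5_LCDM_1 from muscle was -29.1 points, and 14 of the 28 cytosines were lower by 25 points or more. The strands were uneven, with -8.7 points on the plus strand and -29.7 on the minus strand over 9 CpGs read on both. With the strands of these CpGs averaged the difference was -19.2 points, below the size called. The differences of P5_2iL (-19.2) and P5_2iL_F (-14.0) from muscle at the Eng start were then below it too. So was that of P5_LCDM_1 from P5_a2iL_1 (-24.2). Of the 28 cytosines 27 lie inside the gene, from 22 to 294 bp after the start, and none in the 250 upstream bases shown. At the 7 cytosines from 252 bp on muscle was at 40% to 100%, P5_a2iL_1 at 0% or 100%, and the other 3 libraries at 0%. The Eng cytosine at -820 bp went the other way, at 14.3% in muscle and 85.7% to 100% in the teratomas.

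Inside Eng (chr2:32647095-32682169, 141 cytosines) the order was different from the start. P5_LCDM_1 had 55.2%, muscle 65.4%, P5_a2iL_1 73.0%, P5_2iL_F 77.9% and P5_2iL 80.2%. The difference of P5_LCDM_1 from P5_2iL was -25.1 points, with 103 cytosines lower and 20 higher, and it was alike on both strands (-24.9 and -26.4 over 47 CpGs). It fell just short of the size called with cytosines shared by the pair alone (-24.6) and with the median of all windows subtracted (-22.0). It was seen in a tile at chr2:32661595-32662594, where P5_LCDM_1 had 27.3% over 14 cytosines, muscle 36.4% and the other teratomas 67.3% to 86.3%. At chr2:32677595-32678594 (25 cytosines) P5_LCDM_1 was at 50.6%, below muscle (76.7%) as well.

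**Figure D2:**
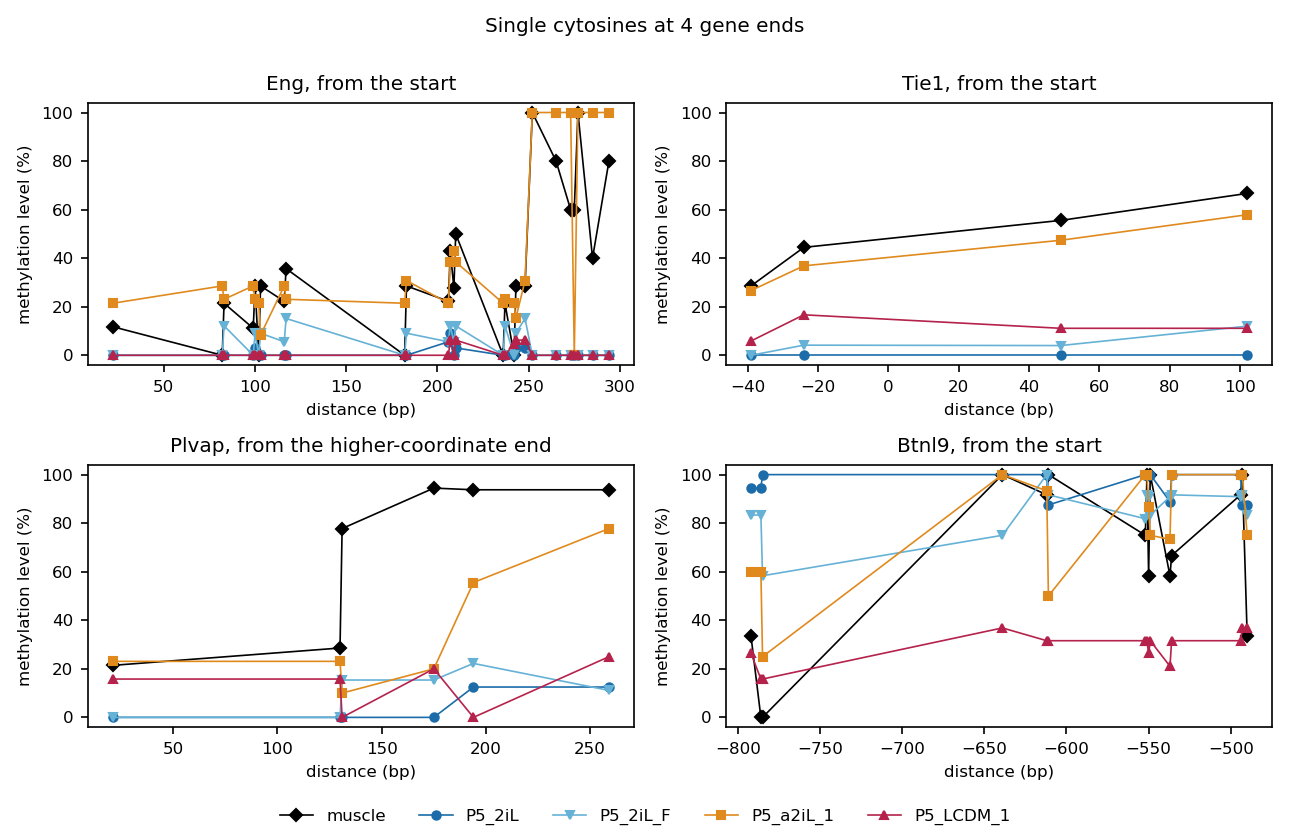
Methylation level (y axis, percent) of single cytosines shared by the 5 libraries at 4 gene ends against distance in bp, where negative values are upstream of the start for Eng, Tie1 and Btnl9 and positive values are outside the gene for Plvap. Muscle and P5_a2iL_1 lie above the other 3 libraries at all 4 Tie1 cytosines, 22 of 28 Eng cytosines are lower in P5_LCDM_1 than in muscle, and at Btnl9 P5_LCDM_1 stays under 40%; the Eng cytosine at -820 bp is not plotted.

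Cdh5 and Pecam1 encode adhesion molecules of the endothelial junction. Cdh5 encodes VE-cadherin, the adhesion molecule of endothelial adherens junctions. Over 51 cytosines inside it (chr8:104102113-104144004) muscle was at 70.3%, P5_2iL at 87.8%, P5_2iL_F at 87.1%, P5_a2iL_1 at 85.9% and P5_LCDM_1 at 58.5%. The other 3 teratomas were close to each other, and P5_LCDM_1 was called lower than each of them, by differences of -27.4 to -29.3 points. With cytosines shared by the pair alone the Cdh5 difference was -24.9 against P5_2iL and -23.3 against P5_a2iL_1, both short of the size called. Against P5_2iL 41 cytosines were lower and 4 higher. The tile with the lowest P5_LCDM_1 level was at chr8:104107613-104108612, with 38.9%, 72.6% in muscle and 83.0% to 88.0% in the others.

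Pecam1 encodes CD31, an adhesion molecule of endothelium and platelets. Inside the gene (chr11:106654713-106714781, 136 cytosines) P5_LCDM_1 (47.1%) and muscle (49.7%) were close, and P5_a2iL_1 (66.5%), P5_2iL (70.4%) and P5_2iL_F (72.7%) were higher. P5_LCDM_1 differed from P5_2iL_F by -25.7 points, past the size called, and from P5_2iL by -23.3 points, short of it. The Pecam1 difference from P5_2iL_F was also short of it with strands averaged (-23.8) and with the median of all windows subtracted (-23.2). Tiles within Pecam1 varied widely. At chr11:106709213-106710212 (21 cytosines) muscle was at 5.40%, P5_LCDM_1 at 37.4%, P5_a2iL_1 at 58.0%, P5_2iL_F at 80.3% and P5_2iL at 86.3%. At chr11:106677213-106678212 (6 cytosines) only P5_2iL (91.7%) and P5_2iL_F (88.0%) were high, with 14.4% to 26.2% in the other 3 libraries. At the higher-coordinate end of the gene (chr11:106714782-106716281, 13 cytosines) P5_a2iL_1 stood highest at 66.8%, against 24.4% in muscle and 19.3% in P5_LCDM_1. P5_2iL (39.6%) and P5_2iL_F (43.4%) lay between. At this end the difference of P5_a2iL_1 from muscle was 42.4 points. With the median over cytosines it was 23.8, short of the size called.

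**Figure D3:**
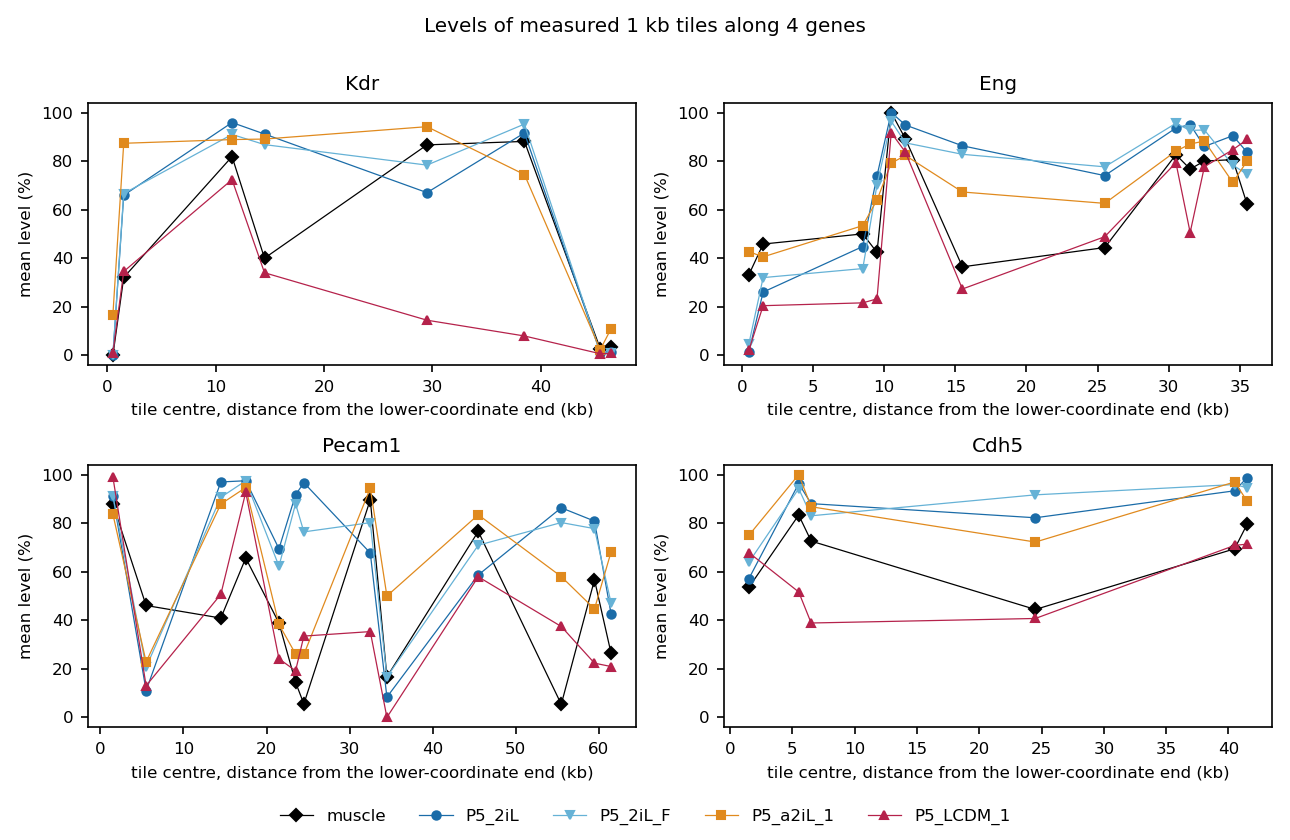
Mean level (y axis, percent) of 1 kb tiles with 3 or more shared cytosines along Kdr, Eng, Pecam1 and Cdh5, against the distance of the tile centre from the lower-coordinate end of the gene in kb; each line is 1 library and joins measured tiles only. P5_LCDM_1 falls to 14.5% and 7.95% in 2 inner tiles of Kdr where muscle is above 80%, and to 38.9% in Cdh5.

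Plvap and Vwf mark specialised endothelium. Plvap forms the diaphragms of fenestrae and caveolae. Its higher-coordinate end (chr8:71511307-71512806, 6 cytosines) had 68.3% in muscle, 34.9% in P5_a2iL_1, 12.8% in P5_LCDM_1, 10.7% in P5_2iL_F and 4.17% in P5_2iL. It was called lower than muscle in all 4 teratomas, although for P5_a2iL_1 the Plvap difference of -33.4 points became -22.5 with cytosines shared by the pair alone. No cytosine was higher than muscle in P5_2iL, P5_2iL_F or P5_LCDM_1, and 1 was higher in P5_a2iL_1. Only 1 CpG was read on both strands, and they were uneven, with -12.8 and -77.8 points in P5_LCDM_1 against muscle. At the other end (chr8:71496753-71498252, 14 cytosines) muscle (22.8%) and P5_LCDM_1 (26.2%) were low, P5_a2iL_1 was at 44.0%, and P5_2iL_F (69.5%) and P5_2iL (72.5%) were high. P5_LCDM_1 differed from P5_2iL there by -46.3 points, with -49.3 and -35.8 on the strands of 5 CpGs. This window overlaps another gene, Gtpbp3. The mean inside Plvap was low, from 1.09% in muscle to 9.39% in P5_2iL over 100 cytosines. Most of these, 39 and 51, lie in the neighbouring tiles chr8:71506753-71507752 and chr8:71507753-71508752, at 0% to 4.07%. A tile of 5 cytosines (chr8:71498753-71499752) was at 0% in muscle and at 26.7% to 65.0% in the teratomas. The inner window overlaps Gtpbp3 and Gm46041.

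Vwf encodes von Willebrand factor, the platelet-binding protein stored by endothelium. Its 281 inner cytosines, the most of any of the 10 genes, averaged from 65.8% in P5_LCDM_1 to 72.4% in P5_2iL. Single tiles differed more than this mean. At chr6:125603948-125604947 (6 cytosines) muscle was at 100% and P5_LCDM_1 at 83.3%, and P5_2iL (5.95%), P5_2iL_F (5.56%) and P5_a2iL_1 (22.2%) were low. At chr6:125617948-125618947 (11 cytosines) muscle was lowest with 29.9%, and the teratomas had 59.8% to 95.0%. Tiles of Vwf thus differed from muscle in both directions.

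Btnl9, a butyrophilin-like gene with expression in capillary endothelium, had the widest split between P5_LCDM_1 and the other teratomas. In its start window (chr11:49186590-49188089, 15 cytosines) muscle was at 67.2%, P5_2iL at 96.0%, P5_2iL_F at 85.9%, P5_a2iL_1 at 79.9% and P5_LCDM_1 at 29.1%. All 15 cytosines were lower in P5_LCDM_1 than in P5_2iL by 25 points or more, and the strands gave -64.8 and -70.8 points over 4 CpGs. They lie from 490 to 792 bp upstream of the start, beyond the 250 bases shown, in which no cytosine of Btnl9 was shared by all libraries. Inside the gene (chr11:49168825-49186589, 41 cytosines) P5_LCDM_1 went from lowest to highest and the other 4 libraries kept their order, with 58.1% in P5_LCDM_1, 43.0% in P5_2iL, 30.2% in P5_2iL_F, 18.9% in P5_a2iL_1 and 17.1% in muscle. P5_LCDM_1 was called higher than muscle (41.0 points), P5_2iL_F (27.8) and P5_a2iL_1 (39.2) there. The Btnl9 difference of P5_LCDM_1 from P5_2iL_F was short of the size called with cytosines shared by the pair alone (17.1), with strands averaged (24.6) and with wider ends (23.9). P5_2iL was also called higher than muscle inside Btnl9 (25.9 points). That difference was short of the size called with cytosines shared by the pair alone (22.1) and with the median of all windows subtracted (20.5). Most of the 41 cytosines lie at the far end of the gene, 13 in chr11:49168325-49169324 and 22 in chr11:49169325-49170324. The tile with 22 had 2.73% in muscle and 7.72% in P5_a2iL_1, against 39.0% in P5_2iL_F, 56.7% in P5_LCDM_1 and 57.5% in P5_2iL. A tile of 3 cytosines further in (chr11:49174325-49175324) had another order. Muscle was at 69.1% there, P5_LCDM_1 at 49.5%, P5_a2iL_1 at 47.0%, P5_2iL at 2.90% and P5_2iL_F at 2.50%.

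Counted over the 10 genes, P5_LCDM_1 had at least 1 window called lower than muscle in 4 genes (Tie1, Eng, Plvap and Btnl9) and higher in 3 (Tie1, Angpt2 and Btnl9), where 2.58% and 6.72% of all 17956 measured genes were called. P5_2iL had 3 lower (background 2.28%) and 4 higher (12.1%), P5_2iL_F 3 lower (2.07%) and 3 higher (11.1%), and P5_a2iL_1 1 lower (1.65%) and 3 higher (6.93%). These 4 comparisons share the muscle library. Since the genes were chosen with these differences known, nothing is read from the gap to the background. P5_LCDM_1 was directly lower than P5_2iL in 5 genes and higher in 0 (7.52% and 2.42% of all genes). Against P5_2iL_F the counts were 4 lower and 1 higher (6.39% and 2.20%), and against P5_a2iL_1 7 lower and 1 higher (3.73% and 2.48%). The 1 higher gene is Btnl9 in both. Close to the size called were the start of Eng in P5_2iL_F against muscle (-25.4 points) and its inner window in P5_LCDM_1 against P5_2iL (-25.1), just inside, and the higher-coordinate end of Pecam1 in P5_LCDM_1 against P5_2iL_F (-24.1), just outside. Also just inside were the inner windows of Btnl9 in P5_2iL against muscle (25.9) and of Pecam1 in P5_LCDM_1 against P5_2iL_F (-25.7).

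By direction alone, P5_LCDM_1 was below muscle while the other 3 teratomas were above it inside 5 of the 10 genes (Tek, Eng, Pecam1, Kdr and Cdh5) and in 2 end windows (Pecam1 and Btnl9). Over all genes this pattern was found in 14.8% of inner windows and 6.03% of end windows. With the median over cytosines in place of the mean this pattern was found inside 3 of the 10 genes and in 1 end window. The P5_LCDM_1 difference from muscle was small inside Tek (-4.28 points) and Pecam1 (-2.64 points). At the 7 CpGs of Tek read on both strands P5_LCDM_1 was not below muscle (0.00263 and 0.529 points). Inside Pecam1 52 cytosines were higher and 67 lower than in muscle. P5_LCDM_1 was the lowest of the 4 teratomas inside 7 of the 10 genes and in 6 of the 10 end windows, where all genes gave 47.5% and 28.1%. The opposite pattern, P5_LCDM_1 above and the others below, was found in 0 windows of the 10 genes. The median inner difference from muscle was -2.64 points in P5_LCDM_1, 12.7 in P5_2iL, 12.0 in P5_2iL_F and 6.65 in P5_a2iL_1 over the 10 genes, and over all genes it was 1.40, 5.43, 4.90 and 2.60. Of the 1145 cytosines 40.1% were between 20% and 80% methylated in P5_LCDM_1, 36.2% in muscle, 36.1% in P5_a2iL_1, 21.2% in P5_2iL_F and 16.7% in P5_2iL. Over all shared cytosines these shares were 26.9%, 21.6%, 22.7%, 15.4% and 13.4%.

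**Figure D4:**
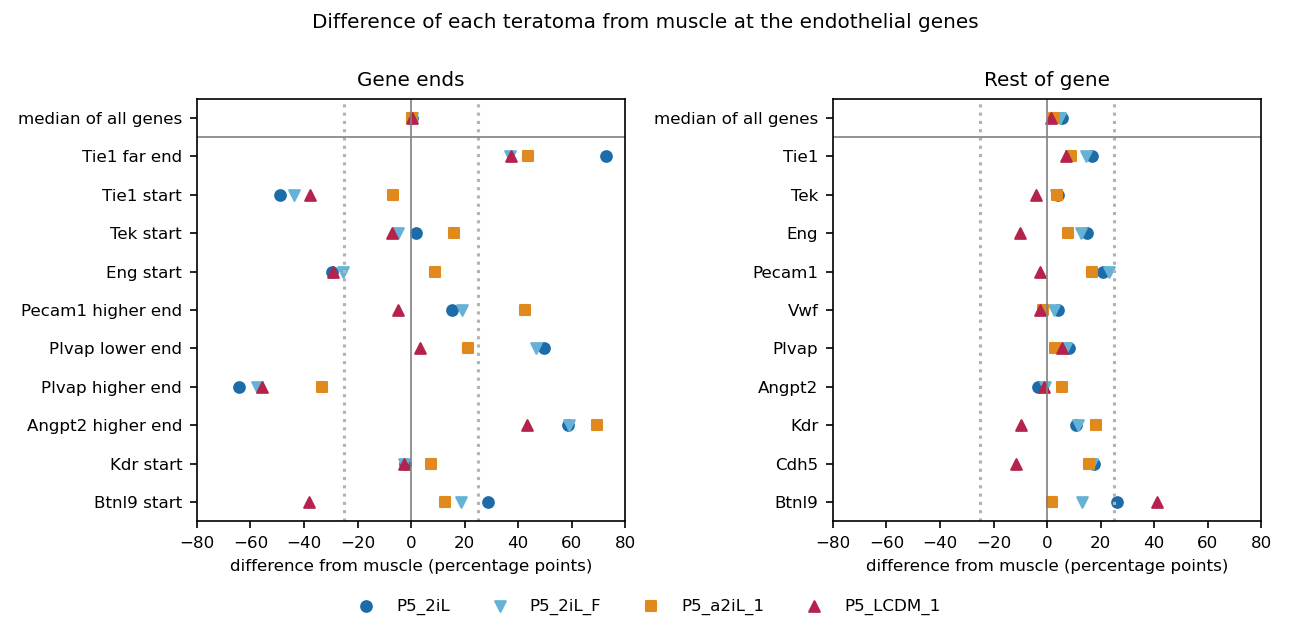
Difference of each teratoma from muscle (x axis, percentage points) in every measured window of the 10 genes, gene ends on the left and the rest of the gene on the right, with the median of all genes on top; points are single libraries and dotted lines mark the size called. P5_LCDM_1 lies left of 0 inside 7 genes, and the far right point among inner windows is Btnl9 in P5_LCDM_1 at 41.0 points.

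Genes around these 10 were followed through 9 vascular lists. The lists hold 130 further genes, of which 125 were measured. P5_LCDM_1 had 8 of them higher and 3 lower than muscle, where 6.72% and 2.58% of all genes were called. P5_2iL had 15 higher and 4 lower (12.1% and 2.28%), P5_2iL_F 19 and 3 (11.1% and 2.07%) and P5_a2iL_1 12 and 1 (6.93% and 1.65%). P5_LCDM_1 was lower in 14 and higher in 4 of these vascular genes against P5_2iL (7.52% and 2.42%), in 10 and 2 against P5_2iL_F (6.39% and 2.20%), and in 8 and 3 against P5_a2iL_1 (3.73% and 2.48%). P5_LCDM_1 was below muscle with the other 3 teratomas above in 22 of 118 inner windows, which is 18.6% against 14.8% over all genes. The median inner difference of these genes from muscle was 1.85 points in P5_LCDM_1 and 6.96 points in P5_2iL, near the values for all genes.

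Windows of some of these genes were, like the inner windows of Cdh5 and Eng, lowest in P5_LCDM_1. P5_LCDM_1 was the lowest of the 4 teratomas in 31.5% of their end windows and 56.8% of their inner windows. Over all genes these shares were 28.1% and 47.5%. It was the highest in 23.8% and 16.1%, against 25.3% and 16.5% over all genes. Nos3, which makes endothelial nitric oxide, was at 51.2% in muscle, 87.8% in P5_2iL, 82.0% in P5_2iL_F, 77.0% in P5_a2iL_1 and 30.6% in P5_LCDM_1 at its lower-coordinate end over 30 cytosines. Inside Aplnr, the apelin receptor gene, P5_LCDM_1 had 21.3%, muscle 37.6% and the others 57.4% to 65.6% (52 cytosines). The Notch ligand gene Dll4 was at 16.8% in P5_LCDM_1 and 29.1% in muscle, with 35.0% to 42.8% in the others (133 cytosines). Gpihbp1, which anchors lipoprotein lipase on capillaries, had 45.8% in P5_LCDM_1, 86.4% in muscle and 74.2% to 88.3% in the others at its lower-coordinate end (11 cytosines). In the caveolar gene Cavin3 the order was another, with muscle lowest at 5.15%, P5_LCDM_1 at 23.9% and the others at 65.8% to 94.4% (15 cytosines).

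Among regulators of endothelial identity, single windows differed in both directions. Lyl1, a helix-loop-helix factor of blood and endothelium, was at 47.2% in muscle, 39.3% in P5_a2iL_1, 20.8% in P5_LCDM_1, 1.75% in P5_2iL_F and 0% in P5_2iL at its start (18 cytosines). Lmo2, its cofactor, was highest in P5_LCDM_1 with 70.9%, against 47.1% in muscle and 22.0% in P5_2iL at its lower-coordinate end (14 cytosines). Nr2f2, a regulator of venous identity, was at 58.0% in P5_LCDM_1 at its far end and at 0% to 3.08% in the other 4 libraries (25 cytosines). Nr2f2 belongs to the Notch list. Of the 23 genes of the transcription factor list P5_LCDM_1 had 2 higher and 1 lower than muscle, where 6.72% and 2.58% of all genes were called. Tgfb1, a ligand gene of the TGF-beta family, was at 34.4% in muscle and 68.2% to 83.2% in the teratomas at its far end (56 cytosines).

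Markers of other cells of the vessel and of blood were counted beside these. Of 14 genes of pericytes and vascular smooth muscle P5_LCDM_1 had 1 higher than muscle (Tagln) and 0 lower, where 6.72% and 2.58% of all genes were called. Of 12 measured blood cell genes 3 were lower (Itgal, Rac2 and Itgb2) and 1 higher (Spi1), and in P5_2iL 6 were lower and 2 higher (2.28% and 12.1% of all genes), in P5_2iL_F 5 and 1 (2.07% and 11.1%), and in P5_a2iL_1 4 and 0 (1.65% and 6.93%). Rac2 was at 94.4% in muscle, 57.6% in P5_LCDM_1, 55.6% in P5_a2iL_1, 1.14% in P5_2iL_F and 0% in P5_2iL at its higher-coordinate end (8 cytosines). The part of blood cells in the lower levels at the starts of Tie1 and Eng and at the higher-coordinate end of Plvap was not tested. Of 20 skeletal muscle genes 15 were called higher and 0 lower than muscle in P5_2iL (12.1% and 2.28% of all genes), and 11 and 0 in P5_LCDM_1 (6.72% and 2.58%). This list, like the others, was chosen with these data known and is no independent check of the labels.

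**Figure D5:**
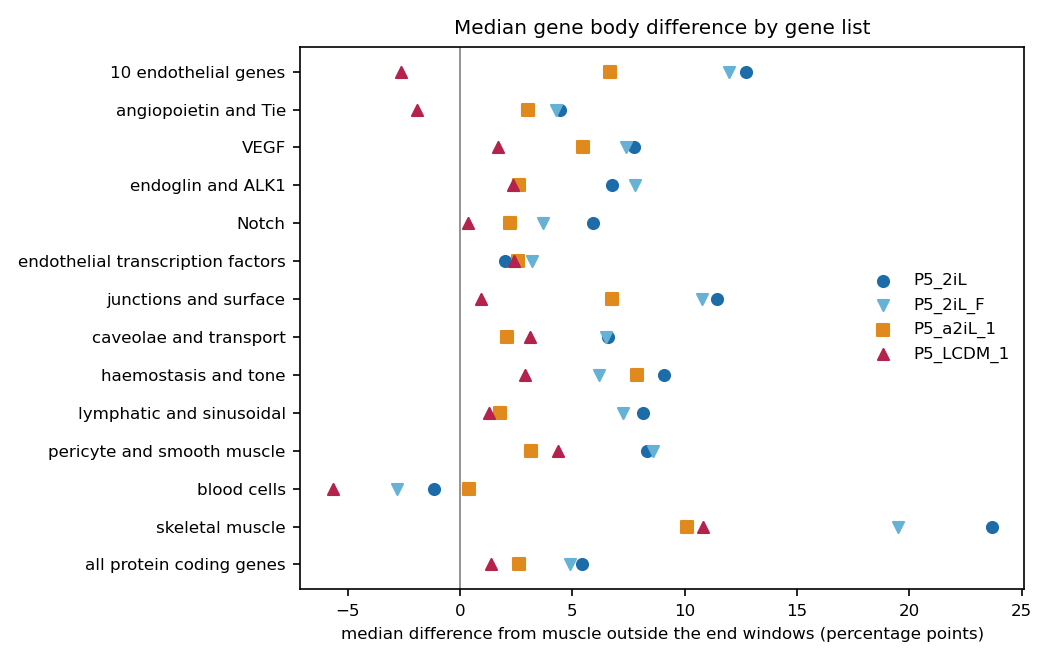
Median difference from muscle (x axis, percentage points) over the inner windows of each gene list and of all protein coding genes; each point is 1 teratoma library. The 10 endothelial genes have the widest gap between P5_LCDM_1 (-2.64) and P5_2iL (12.7) among the vascular lists, several of which contain some of the 10 genes.

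For 3 of the genes the end windows of other genes with the nearest levels over the 5 libraries were listed, by Euclidean distance in points and with 10 or more cytosines. Closest to the start of Eng was the higher-coordinate end of Cd93, a surface glycoprotein of endothelium and myeloid cells, at a distance of 9.50. It had 41.0% in muscle, 47.9% in P5_a2iL_1, 7.87% in P5_2iL_F, 6.50% in P5_LCDM_1 and 1.64% in P5_2iL over 22 cytosines. Osgin1 (12.1) and Ankrd13a (13.0) followed. Nearest to the higher-coordinate end of Plvap were Tmem150b (8.75), Cep70 (9.10) and Mgst2 (11.3), all at gene starts. Nearest to the far end of Tie1 were Zfp951 (14.0), Wasf2 (19.1) and Il16 (20.5).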

How the data were processed

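The authors deposited 1 file per library with a methylation level in percent for each CpG cytosine, strands on separate lines. The tools named are Bismark and Trim Galore 0.6.4, with mm10 as the build, per the submitters' processing notes. For Bismark's version and the coverage minimum, the sources used here give nothing. Coverage is not in the files, so the depth behind a level, and with it any interval, is unknown, and coarse levels from few reads weigh as much as others.

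Positions were checked against the CpGs of RefSeq promoters: read as counting from 1, 99.7% of listed positions fell on a CpG, and counting from 0, 56.0%, so column 2 was taken as counting from 1. Gene spans and strands came from RefSeq tables of GRCm38.p6, which give no exons. Comparisons were each teratoma with muscle (4) and P5_LCDM_1 with each other teratoma (3). Planned Fisher tests need read counts and were not made. The 10 genes and all lists were chosen with earlier results of these data known; tiles of 1 kb were added after the data were seen. Named list genes are among the at most 4 with the largest called difference per list and comparison. The window code was tested on simulated data. Tools were pandas 2.3.3, NumPy 2.4.6 and matplotlib 3.10.9 under Python 3.11.15. Alternatives concerned the cytosine minimum, the size called, which cytosines are shared, strand averaging, window widths, the median of all windows and the median over cytosines.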

Additional observations from a re-analysis of the deposited data

Results flagged for a closer look

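In the start window of Btnl9 the libraries P5_2iL and P5_LCDM_1 moved in opposite directions from muscle, each past the size called. P5_2iL was higher by 28.8 points and P5_LCDM_1 lower by a difference of -38.1 points, so that the teratomas were -66.9 points apart. Each of these groups is 1 library, and the difference was not tested. With end windows of 500 bp on either side the P5_2iL difference from muscle was 16.7 points, below the size called.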

How the results depend on the processing

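Of the recomputed counts over the 10 genes 133 stayed within 1.5 times the main count and 39 did not. No called window difference changed sign in any alternative that was run. Windows with at least 10 cytosines left 2 higher and 1 lower in P5_2iL against muscle, 1 and 1 in P5_2iL_F, 1 and 0 in P5_a2iL_1, 1 and 2 in P5_LCDM_1, and P5_LCDM_1 as lowest teratoma in 3 of 4 end windows. This minimum leaves out both ends of Tie1, the start windows of Tek and Kdr, and the higher-coordinate ends of Angpt2 and Plvap. At 15 points P5_2iL_F had 6 and P5_a2iL_1 had 7 genes higher than muscle, and P5_LCDM_1 had 1 higher and 8 lower than P5_2iL and 7 lower than P5_2iL_F. At 40 points 0 genes were lower in P5_a2iL_1 and 1 in P5_LCDM_1 than in muscle, P5_LCDM_1 was lower in 2 genes than each of P5_2iL, P5_2iL_F and P5_a2iL_1, and it was higher in 0 than P5_2iL_F and P5_a2iL_1. With cytosines shared by the pair alone P5_a2iL_1 had 0 lower than muscle, and P5_LCDM_1 had 3 lower than P5_2iL and 0 higher than P5_2iL_F. With strands averaged, which leaves 3 end windows, the genes lower than muscle were 0 in P5_2iL, P5_2iL_F and P5_a2iL_1 and 1 in P5_LCDM_1, and those higher 0 in P5_a2iL_1 and 1 in P5_LCDM_1. P5_LCDM_1 was then higher in 0 than P5_2iL_F and lower in 2 than P5_a2iL_1, and was lowest teratoma in 3 end windows and below muscle with the others above in 1. Wider ends (2000 bp outside, 1000 bp inside) gave 1 gene higher in P5_LCDM_1 than in P5_2iL. With the median over cytosines 7 genes were higher than muscle in P5_2iL and 6 in P5_2iL_F, and the pattern of P5_LCDM_1 below and the others above muscle was found in 1 end and 3 inner windows. Except where named, the cause was not tested. No paired analysis was possible because each group holds 1 library. Unknown coverage limits every value, most in windows of few cytosines.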
